A study of Mus musculus with 12 samples.

Results

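*Ifih1*, *Dhx58*, *Ddx60*, *Mavs*, *Tlr3*, *Zbp1*, *Adar*, *Trex1* and *Samhd1* encode sensors of foreign or misplaced nucleic acid, an adaptor that relays their signal, and enzymes that limit the nucleic acid they can bind. These 9 genes were taken by symbol from the 25860 genes of the RNA-seq table, and all 9 were found there. The ATAC-seq table listed 23932 peaks, of which 16 carried 1 of the 9 symbols as the authors' gene name.

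The question behind the comparison was how UTX shapes transcription and chromatin accessibility in progenitor CD8+ T cells (T_prog_) of autoimmune diabetes. UTX is a histone demethylase encoded by the X-linked gene *Kdm6a*. The study reports an unchanged rate of diabetes in mice whose UTX lacks demethylase activity. It attributes the role of UTX in diabetes to binding with the transcription factors TCF1 and STAT3. Both genotypes were nonobese diabetic (NOD) mice with the transgenic 8.3 T cell receptor, also written NOD.NY8.3, which recognizes the β cell antigen IGRP. *NOD-TCR 8.3 UTX TCD* animals (UTXTCD.NY8.3 in the labels) carried *UTX fl/fl* and *Lck-Cre*, and the control group was *NOD-TCR 8.3 WT*. There were 3 RNA-seq and 3 ATAC-seq libraries per genotype. The study describes its *NOD-WT* controls as littermates that carry *UTX fl/fl* without Cre. For the 8.3 line the sources used here describe the controls only as lacking the T cell-specific UTX deficiency. The *Lck* promoter drives Cre in the whole T cell lineage and not only in T_prog_ cells, and the floxed line was made on B6 mice and backcrossed to NOD. Only female mice were used, and the age of the mice behind these libraries is not given in the sources used here. The cells came from pancreatic lymph nodes and were sorted as Ly108+CXCR6- by the labels and as Ly108+CD39- by the study's methods.

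Cells carry several independent ways of noticing misplaced nucleic acid. RIG-I-like helicases bind viral or self double-stranded RNA in the cytosol and signal through the mitochondrial adaptor MAVS, Toll-like receptors read nucleic acid inside endosomes, and ZBP1 binds left-handed Z-form RNA and DNA. These routes end in type I interferon or in cell death, interferon in turn raises the RNA of many of the sensors, and nucleases, a dNTPase and an RNA editor keep the cell's own nucleic acid below the level that triggers them.

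RNA-seq depth was 146456724, 144503203 and 193568919 counted reads in WT libraries 1, 2 and 3, and 61512402, 175462433 and 187275082 in UTX TCD libraries 1, 2 and 3. RNA values below are normalized read counts, that is, reads per gene divided by 1 size factor per library. The log2 fold change is UTX TCD minus WT from limma on log2(normalized count + 1), a scale on which genes with few counts change by less than their true ratio, and it is followed by its standard error (SE). A gene was called higher or lower at a Benjamini-Hochberg adjusted p under 0.05, over the 14459 genes with a mean of at least 10, together with a log2 fold change beyond 0.5 in size. The study describes its replicates as mice of each genotype, while the labels do not say that each RNA-seq library was a separate mouse, so p-values measure the spread between these libraries. For a single gene, 3 libraries against 3 cannot give an exact permutation p below 0.10.

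*Kdm6a*, the targeted gene, had 28365, 28949 and 29172 normalized counts in WT and 24158, 24792 and 24579 in UTX TCD libraries. Every UTX TCD value lay below every WT value, in the direction of the labels, although the log2 fold change was only -0.23 (SE 0.04, limma adjusted p = 0.00114). Counts over a whole gene include exons outside the deleted part. Reads per exon were not examined here, so the reason for the small difference was not tested. Of the sort markers, *Slamf6*, which encodes Ly108, averaged 28378 ± 5425 in WT and 34357 ± 2989 in UTX TCD cells (SD, n = 3). *Entpd1*, which encodes CD39, was near the floor at 17.3 ± 10.7 and 7.24 ± 4.82 (SD, n = 3). *Cxcr6* RNA was present in both genotypes, at 12033 ± 2146 in WT and 5658 ± 355 in UTX TCD cells (SD, n = 3), and was called lower (log2 fold change -1.07, limma adjusted p = 0.000131), the only call among the 5 genotype and sort checks. The activation marker *Cd44* averaged 11830.5 ± 377 in WT and 13342 ± 855 in UTX TCD cells (SD, n = 3).

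All 9 sensors and regulators passed the filter on low values. Called higher in UTX TCD cells were 5 of the 9, *Tlr3*, *Ifih1*, *Dhx58*, *Ddx60* and *Zbp1*, against 10.5% of all tested genes. Called lower were 0 of the 9, by limma as by edgeR and DESeq2, against 7.05% of all tested genes, and 0 of the 9 had a log2 fold change below 0. By adjusted p alone 8 of the 9 were higher, against 20.2% of tested genes, and the same 8 had every UTX TCD value above every WT value, against 25.8% of tested genes. The median log2 fold change of the 9 genes was 0.77, and that of all tested genes was -0.0002. The 9 genes were chosen with earlier results of these data known, so these shares are descriptions and not a test. These are bulk measurements, in which a change in the share of cells of a kind and a change in RNA per cell cannot be told apart.

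**Figure D1:**
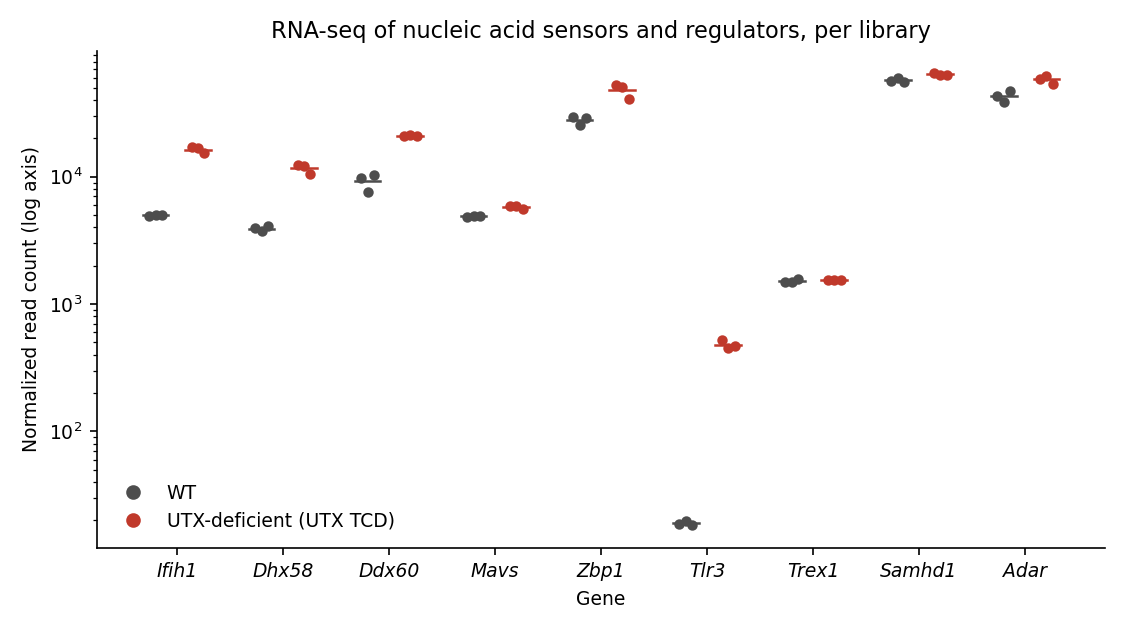
Normalized read counts of the 9 genes in each RNA-seq library, on a log axis, with WT in grey, UTX TCD in red and a bar at each group mean (n = 3). *Tlr3* lies near 19.0 in WT and at 449 to 524 in UTX TCD libraries, whereas the *Trex1* groups overlap.

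*Ifih1* encodes MDA5, the RIG-I-like receptor for long double-stranded RNA, and lies on the minus strand at chr2:62595618-62646255 (GRCm38, the same build as mm10). It had 4946, 4998 and 5045 normalized counts in WT libraries and 17012, 16779 and 15224 in UTX TCD libraries. The WT values were nearly equal, with a coefficient of variation of 0.99%, and the lowest UTX TCD library was 3.02 times the highest WT library. The mean rose 3.27-fold (log2 fold change 1.71, SE 0.05, limma adjusted p = 7.53e-08).

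*Dhx58* encodes LGP2, which binds RNA like RIG-I and MDA5 but has no signalling domain of its own and modulates their output. The gene lies on the minus strand at chr11:100694884-100704271. Its counts were 3970.3, 3720.0 and 4067 in WT libraries and 12396, 12244 and 10551 in UTX TCD libraries. The genotypes were well apart, and UTX TCD library 3 was the lowest of its group, as it was for *Ifih1*. The mean rose 2.99-fold (log2 fold change 1.58, SE 0.07, limma adjusted p = 6.65e-07).

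*Ddx60*, on the plus strand at chr8:61928073-62037704, encodes a DExD/H-box helicase reported to aid RIG-I-like receptor signalling. It had 9782, 7609 and 10334 normalized counts in WT libraries and 20733, 21171 and 20993 in UTX TCD libraries. Here the spread was on the WT side, where library 2 was low and the coefficient of variation was 15.6%, against 1.05% in UTX TCD cells. The mean rose 2.27-fold (log2 fold change 1.19, SE 0.10, limma adjusted p = 2.66e-05).

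*Mavs*, on the plus strand at chr2:131234063-131248025, encodes the adaptor on which RIG-I and MDA5 converge at the mitochondrial surface. Its counts were 4794, 4933 and 4891 in WT libraries and 5844, 5895 and 5532 in UTX TCD libraries. All 3 UTX TCD libraries were above the WT libraries, but the means differed by only 1.18-fold. The log2 fold change of 0.24 (SE 0.05, 95% interval 0.13 to 0.35, limma adjusted p = 0.00347) was under the fold limit, so the adaptor was not called while the 3 helicase genes that feed or tune it were.

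*Tlr3* encodes the endosomal receptor for double-stranded RNA and lies on the minus strand at chr8:45395665-45411075. It was barely detected in WT libraries, at 18.8, 19.7 and 18.3 normalized counts, and reached 524, 449 and 464 in UTX TCD libraries. The WT values rest on 19, 20 and 24 reads, and the UTX TCD values on 233, 561 and 630 reads. The lowest UTX TCD library was 22.8 times the highest WT library. The mean rose 25.3-fold (log2 fold change 4.59, SE 0.18, 95% interval 4.19 to 4.99, limma adjusted p = 2.96e-07), which placed *Tlr3* at rank 9 of the 14459 tested genes by log2 fold change. Even so its RNA stayed low beside the other 8 genes in both genotypes.

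*Zbp1*, on the minus strand at chr2:173206612-173218959, encodes the sensor of Z-form nucleic acid that can start RIPK3-dependent necroptosis. It had 29283, 25685 and 28873 normalized counts in WT libraries and 52901, 50456 and 40534 in UTX TCD libraries. The genotypes did not overlap, and UTX TCD library 3 was again the lowest of its group. The mean rose 1.72-fold (log2 fold change 0.77, SE 0.10, limma adjusted p = 0.000275).

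*Adar* encodes ADAR1, which converts adenosine to inosine in double-stranded RNA and so keeps endogenous RNA from being read by MDA5 and ZBP1. The gene lies on the plus strand at chr3:89714469-89753455. Its counts were 43042, 38515 and 47040.1 in WT libraries and 58619, 62224 and 53755 in UTX TCD libraries. Every UTX TCD library was higher, by 1.36-fold in the means, yet the log2 fold change of 0.44 (SE 0.08, 95% interval 0.27 to 0.62, limma adjusted p = 0.002) stayed under the fold limit. *Adar* was called higher when WT replicate 3 was left out (log2 fold change 0.51) and when libraries were scaled to the same sum (0.51).

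*Samhd1*, on the minus strand at chr2:157097534-157135096, encodes a dNTPase that limits the deoxynucleotide pool and restricts retroviruses. It had 56904, 59759 and 55710 normalized counts in WT libraries and 64848, 62635 and 63133 in UTX TCD libraries. The difference was small against a high level, and the groups did not overlap. The log2 fold change was 0.15 (SE 0.04, limma adjusted p = 0.0254) and not called.

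*Trex1*, on the minus strand at chr9:109057932-109059723, encodes the main cytosolic DNA exonuclease of mammalian cells, which removes DNA that would otherwise activate cGAS. Its counts were 1496, 1485 and 1566 in WT libraries and 1545, 1554 and 1547 in UTX TCD libraries. All 3 UTX TCD values lay within the range of the WT values. The log2 fold change was 0.03 (SE 0.06, 95% interval -0.11 to 0.18, limma adjusted p = 0.724), so that a change of the size seen for *Zbp1* lies outside the interval.

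Reads of overlapping genes may be shared, since the strand setting of the counting is not given in the sources used here. *Adar* overlaps *Chrnb2* on the other strand, and *Chrnb2* averaged 1002 normalized counts in WT and 1091 in UTX TCD libraries, far below *Adar*. *Trex1* lies within a read-through gene with *Atrip* on the same strand, and *Atrip* averaged 2988 in WT and 3057 in UTX TCD libraries. *Ifih1* and *Dhx58* each overlap a predicted gene on the other strand whose values were not analysed here.

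Levels were compared between genes after division by exon length, as normalized counts per kb of the union of RefSeq exons. In WT cells *Zbp1* had the highest level, 12926 ± 911 per kb, followed by *Samhd1* at 12199 ± 442 per kb (SD, n = 3), and the ranges of these neighbours overlapped. *Adar* came next at 6907 ± 687 per kb. *Dhx58* (1625 ± 74.3 per kb), *Ddx60* (1542 ± 240.4 per kb) and *Mavs* (1528 ± 22.3 per kb) followed with overlapping ranges. *Trex1* was at 1333 ± 39.0 per kb, and its range lay within that of *Ddx60* and below that of *Mavs*. *Ifih1* was lower at 905 ± 8.96 per kb, and *Tlr3* was last at 4.22 ± 0.163 per kb. Thus the most abundant transcripts of the 9 in WT T_prog_ cells were those of the Z-form sensor, the dNTPase and the editor, and not those of the helicases *Ifih1*, *Dhx58* and *Ddx60*.

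In UTX TCD cells the order changed in its middle. *Zbp1* (22185 ± 3029 per kb), *Samhd1* (13490.1 ± 246 per kb) and *Adar* (9378 ± 685 per kb) remained the first 3, now without overlap between neighbours. *Dhx58* (4863 ± 425 per kb) and *Ddx60* (3498 ± 36.8 per kb) were next, and *Ifih1* (2960.4 ± 176 per kb) moved above *Mavs* (1805 ± 61.7 per kb) and *Trex1* (1362 ± 4.14 per kb). *Tlr3* was still last at 107 ± 8.82 per kb. Neighbours in this order did not overlap in their library ranges. The level of *Ifih1* thus stood above that of its adaptor *Mavs* in UTX TCD cells and below it in WT cells.

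The genes around each route were described with 7 fixed lists, and each count stands beside 10.5% of all tested genes called higher and 7.05% called lower. The lists were chosen with earlier results of these data known, so their counts are descriptions and not tests. Of 19 genes that modify or relay RIG-I-like receptor signals, 4 were called higher and 1 lower, with a median log2 fold change of 0.057. By adjusted p alone, by which 20.2% of all tested genes were higher and 20.5% lower, 9 were higher and 2 lower. *Rigi*, the receptor for short double-stranded and triphosphate RNA, rose from 35985 ± 2367 to 56943 ± 5706 normalized counts (SD, n = 3; log2 fold change 0.66). *Trim25*, a ubiquitin ligase linked to RIG-I activation, rose from 34108 ± 265 to 50865 ± 4765 (0.57). *Irf7*, the interferon regulatory factor that amplifies type I interferon output, rose from 14599 ± 1971 to 36673 ± 1186 (1.34), whereas *Irf3* was not called. *Nlrx1*, a mitochondrial protein reported to restrain MAVS, rose from 370.5 ± 20.1 to 779 ± 30.8 (1.07). *Rnf125*, a ubiquitin ligase that marks RIG-I and MAVS for degradation, fell from 11240 ± 923 to 6902 ± 273 (log2 fold change -0.70). The higher calls thus included both an activating and a restraining factor, and the kinase genes *Tbk1* and *Ikbke* were not called.

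On the DNA side, 1 of 8 genes was called higher, a share near the 10.5% of all tested genes, and 2 lower (median log2 fold change 0.048). By adjusted p alone 3 were higher and 3 lower, beside 20.2% and 20.5% of all tested genes. *Cgas*, the cytosolic DNA sensor, rose from 1723 ± 90.9 to 2754 ± 142 normalized counts (log2 fold change 0.68). *Sting1*, which relays its cGAMP signal, fell from 22405 ± 1953 to 15285 ± 80.5 (-0.55). *Enpp1*, which hydrolyses cGAMP outside the cell, fell from 2082 ± 218 to 578 ± 107 (-1.86). The sensor and its relay therefore moved in opposite directions while the exonuclease *Trex1* was not called.

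Of 12 endosomal Toll-like receptor and adaptor genes other than *Tlr3*, 10 were tested, 1 was called higher, a share near the 10.5% of all tested genes, and 0 lower (median log2 fold change 0.035), and the counts were the same by adjusted p alone, beside 20.2% and 20.5% of all tested genes. *Tlr7*, the receptor for single-stranded RNA, rose from 1518 ± 204 to 4394 ± 822 normalized counts (log2 fold change 1.53). *Tlr8* and *Tlr13* were too low to test, and *Ticam1*, which encodes TRIF, the adaptor of TLR3, was not called at -0.08. Among 13 double-stranded and Z-form RNA effectors 2 were called higher and 0 lower (median 0.064), and by adjusted p alone 6 were higher and 1 lower, beside the same 20.2% and 20.5% of all tested genes. *Eif2ak2*, which encodes PKR, the kinase that stops translation on double-stranded RNA, rose from 3144 ± 235 to 10379 ± 1284 (1.72). *Mlkl*, the executioner of necroptosis downstream of *Zbp1*, rose from 56.5 ± 4.26 to 144 ± 8.23 (1.33), and *Ripk1* and *Ripk3* between them were not called.

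Of 21 nucleases and editors other than *Adar*, *Trex1* and *Samhd1*, 20 were tested, 2 were called higher, a share near the 10.5% of all tested genes, and 0 lower (median log2 fold change -0.041). By adjusted p without the fold limit, 5 were higher and 5 lower, shares near the 20.2% and 20.5% of all tested genes. *Adarb1*, a second editing enzyme, rose from 147 ± 13.1 to 328 ± 67.1 normalized counts (log2 fold change 1.14). *Pld4*, an endolysosomal exonuclease, rose from 286 ± 55.5 to 466 ± 72.6 (0.71).

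Interferon genes and their receptor were examined with 12 genes, of which 10 were tested, 3 called higher and 0 lower (median log2 fold change 0.24). By adjusted p alone 5 were higher and 1 lower, beside 20.2% and 20.5% of all tested genes. *Ifnb1* and *Ifna4* had 0 reads in all 6 libraries. *Usp18*, an inhibitor of the type I interferon receptor that interferon itself raises, rose from 4019 ± 449 to 15015 ± 3025 normalized counts (log2 fold change 1.89). *Stat2*, a subunit of the interferon-activated factor ISGF3, rose from 16873 ± 689 to 31884 ± 3671 (0.91), and *Socs1*, an inhibitor of JAK kinases, from 922 ± 39.8 to 1461 ± 50.1 (0.66). The receptor gene *Ifnar1* was not called, with 35850.0 ± 590 in WT and 29040.3 ± 771 in UTX TCD libraries.

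Of 31 interferon-stimulated genes 30 were called higher and 0 lower, with a median log2 fold change of 1.22, and the counts by adjusted p alone were the same, beside 20.2% and 20.5% of all tested genes. Like the other lists, this list was chosen with earlier results known, so its share is not an independent test. The 5 of largest change were *Ifi44* (log2 fold change 3.74), *Mx1* (3.15), *Rsad2* (3.08), *Ifitm3* (2.99) and *Ifit3b* (2.98). *Mx1*, an antiviral dynamin-like GTPase, had 2144 ± 228 normalized counts in WT and 19044 ± 2727 in UTX TCD libraries (SD, n = 3). *Ifi44* was uneven, with 319, 362 and 1106 in the UTX TCD libraries against 28.2 to 45.4 in WT. *Ifit1bl1* was the gene not called (log2 fold change 0.17). The log2 fold changes of this list ran from 0.17 to 3.74. *Ifih1*, *Dhx58*, *Ddx60* and *Zbp1* lay within this wide range, and so did *Mavs* (0.24) and *Adar* (0.44), which were not called. *Tlr3* lay above it, and *Samhd1* (0.15) and *Trex1* (0.03) lay below it.

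**Figure D2:**
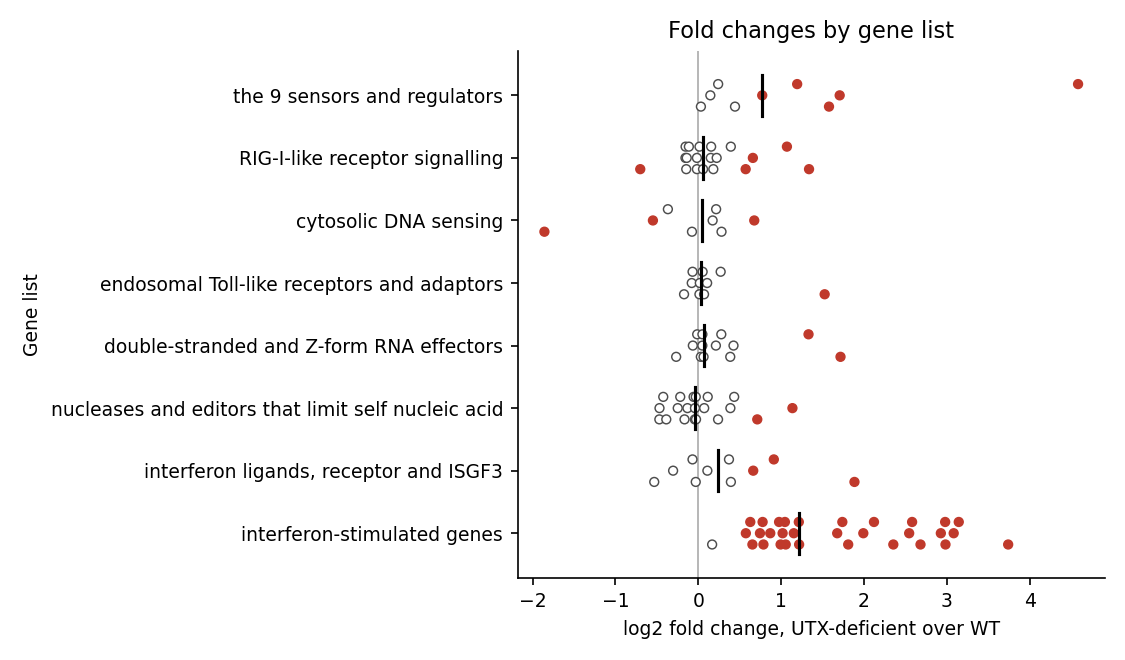
log2 fold changes, UTX TCD over WT, of the tested genes in each gene list, with called genes in filled red, other genes in open circles and the list median as a black bar. The medians lie between -0.041 and 0.24 in every list other than the 9 sensors and regulators (0.77) and the interferon-stimulated genes (1.22). All lists were chosen with earlier results of these data known.

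Genes with the most similar profile were found for each of the 9 as those with the smallest root mean square difference of centred log2 values over the 6 libraries. Nearest to *Ifih1* were *Nav2* (difference 0.0514) and then *Dhx58* (0.0784), although *Ifih1* was not among the nearest to *Dhx58*. Nearest to *Dhx58* were *Tdrd7* (0.0622) and *Uchl1* (0.0663), and nearest to *Ddx60* were *Rgmb* (0.0671) and *Necab3* (0.0758). *Tlr3* was closest to *Mmp14* (0.123), which averaged 291 normalized counts in WT and 7465 in UTX TCD cells. *Zbp1* was closest to *Zbtb20* (0.0213) and *Ogfrl1* (0.048). The measure includes the genotype difference, so a close match can reflect a similar fold change alone and does not show shared regulation. For genes that differ little between genotypes a match says still less. The nearest were *Thap4* and *Lats1* for *Mavs*, *Donson* and *Rragc* for *Trex1*, *Mpdu1* and *Pias2* for *Samhd1*, and *Pde1b* and *Tns1* for *Adar*.

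Myeloid, B and dendritic cells express several of these sensors strongly, so markers of other cell types were read beside the 9 genes as sums of normalized counts. The 6 CD8+ T cell markers summed to 875499, 829408 and 847571 in WT and 869077, 841632 and 776019 in UTX TCD libraries, led by *Cd8a*, and 0 of the 6 were called. By adjusted p alone, *Cd8b1* (log2 fold change -0.37), *Cd3d* (-0.28) and *Cd3g* (-0.26) were lower and *Cd3e* (0.17) was higher. The 6 dendritic cell markers summed to 266, 210.3 and 244 in WT and 218, 228 and 252 in UTX TCD libraries. *Xcr1* was the most abundant of them, *Clec9a*, *Siglech* and *Flt3* were too low to test, and 1 of the 3 tested, *Itgax*, was lower, at 0, 0 and 4.42 in UTX TCD libraries. *Zbtb46* had 47.5, 24.7 and 25.9 normalized counts in WT and 47.2, 57.7 and 75.9 in UTX TCD libraries and was not called (log2 fold change 0.90, limma adjusted p = 0.0541). The dendritic cell sum overlapped between genotypes.

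The 5 macrophage and monocyte markers summed to 776, 789 and 612 in WT and 1035, 786 and 966 in UTX TCD libraries, which overlap. *Cd68*, the most abundant, had 685, 667 and 544 in WT and 972, 703 and 896 in UTX TCD libraries, all 3 above WT, with a log2 fold change of 0.43 under the fold limit (limma adjusted p = 0.0377). *Csf1r* was called lower, *Adgre1* and *Cd14* were too low to test, and *Cd14* was at 0 in 1 WT and 2 UTX TCD libraries. The 4 B cell markers given here summed to 3002, 2517 and 2838 in WT and 1471, 1316 and 1424 in UTX TCD libraries. This lower sum came from *Cd79b*, the most abundant (called lower), while *Ms4a1* and *Cd22* were called higher from low levels and *Cd79a* was not called. In UTX TCD libraries *Ms4a1* had 20.2, 29.6 and 73.0 normalized counts and *Cd22* had 277, 247 and 502, both highest in library 3. *Cd79a* and *Cd79b* were lowest of their group in that library. The CD4 T cell markers *Cd4* and *Zbtb7b* were both called lower, with sums of 158, 138 and 169 in WT and 67.5, 86.5 and 64.1 in UTX TCD libraries.

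The 3 NK cell markers summed to 13406, 15369.8 and 13193 in WT and 19113, 19092 and 26857 in UTX TCD libraries. Nearly all of this was *Eomes*, which CD8+ T cells also express and which was called higher, whereas *Klrb1c* was not called and *Ncr1* was too low to test, at 0 in 2 libraries of each genotype. The 5 stromal and endothelial markers summed to 31936, 29798 and 32082 in WT and 37925, 38147 and 33883 in UTX TCD libraries. *Pecam1*, which T cells also express, was the most abundant, 1 marker, *Col1a2*, was called higher, and *Pdgfra* and *Cdh5* were too low to test, with *Cdh5* at 0 in all UTX TCD libraries. The part of other cells in the sensor values was not tested.

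In the ATAC-seq table every listed peak had an FDR under 0.05 in the authors' own comparison, so that a gene without a listed peak may still have open chromatin. Values are the authors' mean log2 normalized reads in a peak for each genotype, with no spread or test here, and the difference is UTX TCD minus WT. At least 1 peak was listed for 6 of the 9 genes, against 47.6% of tested genes, and none for *Ddx60*, *Mavs* or *Trex1*. Of the 16 peaks 13 were higher and 3 lower in UTX TCD cells, against 68.8% higher among all listed peaks. The share of higher peaks was thus not far from that of the whole table.

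**Figure D3:**
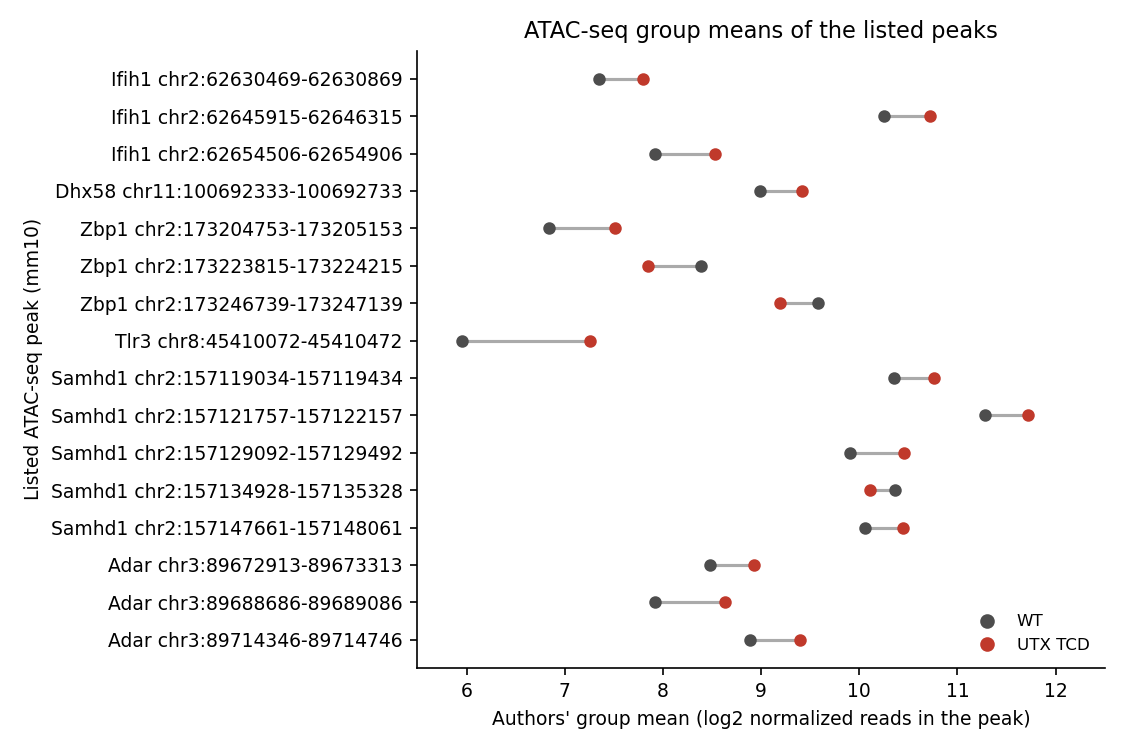
Authors' ATAC-seq group means of the 16 listed peaks, in log2 normalized reads, with WT in grey and UTX TCD in red and a grey line joining the same peak. Red lies to the right of grey in 13 peaks, with the widest gap at *Tlr3* (5.96 to 7.26).

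The single *Tlr3* peak, chr8:45410072-45410472, had the lowest WT mean of the 16 and the largest difference. Its mean log2 signal was 5.96 in WT and 7.26 in UTX TCD cells, a difference of 1.30 or 2.47-fold. The authors' annotation places it in intron 1 of the longer *Tlr3* transcripts, which start at 45410619. RefSeq also has a shorter transcript that starts inside the peak, at 45410380, with a first exon at chr8:45410300-45410380. The gene of largest RNA change among the 9 thus also had the peak of largest change, across an annotated start site.

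*Ifih1* had 3 listed peaks and all were higher. The strongest, chr2:62645915-62646315, covers the start site and the 5′ UTR in exon 1, with means of 10.25 in WT and 10.72 in UTX TCD cells (difference 0.47). A peak in intron 2, chr2:62630469-62630869, had 7.34 and 7.80 (0.46), and a peak 8251 bases upstream of the gene, chr2:62654506-62654906, had 7.92 and 8.53 (0.61). For *Dhx58* the 1 listed peak, chr11:100692333-100692733, lay 2151 bases beyond the 3′ end of the gene, with 8.99 in WT and 9.42 in UTX TCD cells (0.43). The start site of *Dhx58*, whose RNA rose nearly as much as that of *Ifih1*, carried no listed peak.

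At *Zbp1* accessibility did not move in 1 direction. A peak 1459 bases beyond the 3′ end of the gene, chr2:173204753-173205153, was higher, with 6.84 in WT and 7.51 in UTX TCD cells (difference 0.67). On the upstream side, chr2:173223815-173224215 was lower (8.39 and 7.85, difference -0.54), and so was chr2:173246739-173247139 (9.58 and 9.20, difference -0.39). Both upstream peaks lie in the neighbouring gene *Pmepa1*, at its 3′ end and in its intron 1, and were given to *Zbp1* by nearest start site.

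*Adar*, whose RNA was not called, had 3 higher peaks under its own name, of which 1 overlaps the gene. The peak annotated as promoter, chr3:89714346-89714746, had 8.89 in WT and 9.40 in UTX TCD cells (difference 0.51). Further upstream, the intergenic peak chr3:89688686-89689086 had 7.92 and 8.63 (0.71), and chr3:89672913-89673313, at the end of *Kcnn3*, had 8.48 and 8.93 (0.45). Inside *Adar* 2 more peaks were listed under the overlapping gene *Chrnb2* and were also higher, chr3:89748759-89749159 in intron 11 (5.21 and 6.20, difference 0.99) and chr3:89752209-89752609 in the 3′ UTR (7.12 and 7.82, difference 0.71). *Samhd1* had 5 listed peaks, of which the peak on its start site, chr2:157134928-157135328, was lower (10.37 and 10.11, difference -0.25) while 3 peaks inside the gene were higher by 0.40 to 0.55. The last, chr2:157147661-157148061, in intron 21 of the neighbouring gene *Rbl1*, was higher by 0.39. *Samhd1* and *Zbp1* are therefore the genes here with listed peaks in both directions.

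Because several of these genes moved together, their promoters were searched on both strands for GAAANNGAA, the core of the interferon-stimulated response element (ISRE), for TTCNNNGAA, the interferon gamma-activated site (GAS) letters that STAT factors bind, and for CTTTGA, the TCF/LEF core. Sequences were RefSeq promoters on GRCm38.p6, 250 bases before to 50 after a start, which come from C57BL/6J and not from NOD mice. In all 32851 promoters 8.56% held the ISRE core, 8.3% the GAS letters and 16.0% the TCF/LEF core. The ISRE and GAS letters can share a GAA, so the same bases may count for both. The table held 10 promoters of 7 of the 9 genes, and *Dhx58* and *Zbp1* were not among them. The ISRE core was present at *Ddx60*, at *Ifih1* and at the most downstream of 3 *Adar* starts, and these letters were not in the windows of *Mavs*, *Samhd1*, *Tlr3* or *Trex1*. The GAS letters were in 2 of the 10 promoters, at *Samhd1* and at the same *Adar* start, and the TCF/LEF core was in 1, at *Ddx60*. The *Tlr3* window was built on the shorter transcript, so most of the 250 bases before the start at 45410619 were not searched.

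The *Ddx60* promoter held the ISRE core in 2 copies, at 53 and 19 bases before the start, and 1 TCF/LEF core at 72 bases before it. The *Ifih1* promoter held a copy on the other strand at 112 bases before the start and another 32 bases after it, inside the peak over its 5′ UTR, at chr2:62646215-62646223. The 130 bases before each start are shown 5′ to 3′ on the strand of the gene, with the ISRE core in capitals, at chr8:61927957-61928086 (plus strand) for *Ddx60* and chr2:62646256-62646385 (minus strand) for *Ifih1*. The third line gives the *Ifih1* copy after the start, at chr2:62646205-62646233 on the minus strand.
Ddx60 upstream: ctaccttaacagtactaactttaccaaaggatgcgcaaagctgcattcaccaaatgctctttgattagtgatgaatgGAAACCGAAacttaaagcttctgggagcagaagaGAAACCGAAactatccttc
Ifih1 upstream: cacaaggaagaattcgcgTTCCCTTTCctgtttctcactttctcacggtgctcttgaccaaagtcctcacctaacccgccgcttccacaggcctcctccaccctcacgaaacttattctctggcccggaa
Ifih1 after the start: gaagagaatcGAAACAGAAaccgatctgt

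The same letters were searched in 23907 of the 23932 listed peaks. Of the peaks searched, 13.6% held the ISRE core, 11.9% the GAS letters and 30.6% the TCF/LEF core. Of the 16 peaks, 2 held the ISRE core, the *Ifih1* start site peak and the *Samhd1* peak within *Rbl1*. The GAS letters were also in 2 of the 16, the *Tlr3* peak and a *Samhd1* peak, and the TCF/LEF core was in 6 of the 16, at *Samhd1* (3 peaks), *Adar*, *Ifih1* and *Zbp1*. The ISRE and GAS counts were thus near the shares of all peaks searched. The *Tlr3* peak held no ISRE core and no TCF/LEF core, but it had the GAS letters in 2 places, starting at 45410084 and 45410154. Both lie in intron 1, downstream of the shorter transcript's first exon. How many other peaks hold 2 copies is not given here, and binding at these letters was not tested. The stretch that spans them, chr8:45410074-45410172, is shown 5′ to 3′ on the minus strand with the GAS letters in capitals, since this peak changed most.
Tlr3 intron 1: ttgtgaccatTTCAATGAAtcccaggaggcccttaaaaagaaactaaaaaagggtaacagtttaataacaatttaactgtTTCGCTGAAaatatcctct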

How the data were processed

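RNA-seq and ATAC-seq were examined in progenitor CD8+ T cells, with 3 libraries per genotype and groups taken from the sample labels. The deposited RNA-seq signal was made by the authors with HISAT2 2.2.1 on mm10, featureCounts and DESeq2 size factors. The authors' deposited ATAC-seq log2 values were DiffBind group means over MACS2 peaks, and the deposited FDR, an adjusted p-value of the authors' comparison, was read only to state the listing limit. The tables also hold the authors' fold changes and p-values, which were not used. Here limma 3.58.1 in R 4.3.3 was fitted, by genotype alone, to log2(normalized count + 1) of genes with a mean of at least 10. Whole reads were recovered for 100% of values (within 0.01 of a read), and edgeR 4.0.16 and DESeq2 1.42.0 on those reads called 1529 and 1462 genes higher. The steps were tested on simulated data. Sequences, exons and positions came from RefSeq on GRCm38.p6. Depth was 61512402 to 193568919 reads. The members and lists were chosen with earlier results of these data known. Genes named in the text were the 9 genes, genotype and sort markers, called genes of each list (up to 5 of largest fold), the most abundant marker of each cell type and the 2 nearest profiles per gene. A few genes that fall under these criteria are not reported here. Other genes, such as uncalled list members and overlapping genes, were chosen after their values were seen. Alternatives covered the pseudocount, filter, scaling, test, replicate block, fold limit, peak limits and each library left out.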

Additional observations from a re-analysis of the deposited data

How the results depend on the processing

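The 5 higher calls among the 9 genes were kept in number under each scaling, filter, pseudocount, test and left-out library that was run, except that 6 were called without WT replicate 3 and with libraries scaled to the same sum, where *Adar* passed the fold limit. *Ifih1* ranged from 1.68 to 1.77 in log2 fold change, *Dhx58* from 1.54 to 1.65, *Ddx60* from 1.06 to 1.28, *Zbp1* from 0.70 to 0.89 and *Tlr3* from 4.33 to 4.66 over 17 alternative fits, and each was called in all 17. *Samhd1* had an adjusted p under 0.05 in 12 of the 17 and *Trex1* in 0. Without a fold limit 2924 genes were higher, 2963 lower and 8 of the 9 genes higher, since fewer criteria then apply. With the replicate number as a block (replicate block), 1484 genes were called higher, 990 lower and 5 of the 9 genes higher. Same-numbered libraries deviated with correlations of 0.305, -0.20 and 0.09, so the numbers were not taken to pair the samples, and not every library correlated best with its own number. Of the 16 peaks, 6 were higher and 1 lower by more than 0.5, 1 higher and 0 lower by more than 1, and 3 higher and 1 lower within 1 kb of the start site, since these limits keep fewer peaks. Limits were that 3 libraries per genotype give few degrees of freedom, that *Tlr3* rests on 19 to 24 reads per WT library, and that ATAC-seq values per library were not analysed here.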

Other observations

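Within each genotype many interferon-stimulated genes shared their lowest library, a pattern chosen after the values were seen. Among WT libraries, library 2 was the lowest for 26 of the 31 interferon-stimulated genes and for 5 of the 9 sensors and regulators (*Dhx58*, *Ddx60*, *Zbp1*, *Trex1* and *Adar*), against 39.4% of all tested genes. For *Trex1* the gap to the next library was small, 1485 against 1496. Among UTX TCD libraries, library 3 was the lowest for 26 of the 31 and for 5 of the 9 (*Ifih1*, *Dhx58*, *Mavs*, *Zbp1* and *Adar*), against 37.3% of all tested genes. With 9 genes, these counts say little about the sensors beyond the general behaviour of each library. The summed normalized counts of the 31 genes were 287274, 262537 and 294951 in WT and 624982, 638943 and 546714 in UTX TCD libraries, so the spread within a genotype was small beside the difference between genotypes. *Ddx60* and *Tlr3* were not lowest in UTX TCD library 3, and *Ddx60* varied by 1.05% there against 15.6% in WT.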
